A study of Homo sapiens with 13 samples.

Results

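Genes of the Hippo pathway around the transcriptional coactivator YAP and its DNA-binding partner TEAD, its regulators and some of its target genes, were examined in CUT&RUN peak lists from a pancreatic cancer cell line. The set held 10 genes of the 19970 protein-coding genes with a RefSeq position, namely YAP1, WWTR1, TEAD1, CCN1, CCN2, ANKRD1, AMOTL1, AMOTL2, PTPN14 and MYOF. They were listed by name, with no threshold on a measured value, and with earlier results of these data known. Each gene was represented by a window, its RefSeq span on GRCh38 plus 50 kb to both sides. CCN1, CCN2, ANKRD1 and MYOF were treated as target genes (4 genes), and YAP1, WWTR1, TEAD1, AMOTL1, AMOTL2 and PTPN14 as regulators (6 genes).

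The Hippo pathway restrains growth by keeping YAP and its paralogue TAZ out of the nucleus. YAP and TAZ do not bind DNA themselves, and once in the nucleus they switch on genes through TEAD factors, often at enhancers at a distance from the gene. In epithelial tumours, pancreatic ductal carcinoma among them, the pathway is known for its part in growth, adhesion and matrix production. YAP1 encodes YAP, WWTR1 encodes TAZ, and TEAD1 encodes a DNA-binding TEAD factor. AMOTL1 and AMOTL2 (angiomotin-like scaffold proteins) and PTPN14 (a protein tyrosine phosphatase) hold YAP outside the nucleus, and AMOTL2 and PTPN14 are also known as YAP target genes that feed back on it. CCN1 and CCN2 encode secreted matricellular proteins, ANKRD1 an ankyrin repeat protein of the nucleus and sarcomere, and MYOF the membrane repair protein myoferlin.

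PANC1 is an established line from a human pancreatic ductal carcinoma, and every library came from PANC1 cells that stably express BRG1 (labelled BRG oe). All samples share this change, with no parental PANC1 cells among them, and the labels do not say how BRG1 was introduced or how many clones the line represents. In CUT&RUN a nuclease tethered to an antibody releases the DNA beside the bound protein, and here the cells were mildly crosslinked. The 12 libraries used are 2 replicates each of 6 targets: BRG1 (the SMARCA4 ATPase of BAF-type chromatin remodellers), SMARCC1 (a core subunit of the same complexes), NRF2 (the transcription factor of antioxidant genes), H3K27ac (a mark of active promoters and enhancers), H3K4me1 (an enhancer mark) and H3K4me3 (a promoter mark). The labels do not say that replicates were separate cultures, and the IgG library was not used here. A fold enrichment below is the value the authors deposited for a peak. Over which background it was taken is not given in the sources used here. A site is a place where peaks of both replicates of a target overlapped or touched.

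The letters in front of the genes were looked at first, because TEAD factors are known to read GGAATG. The promoters printed run 250 bases up to the base before the start and come from the RefSeq table of GRCh38.p14, which lists 8 of the 10 genes. CCN1 and TEAD1 have no entry in that table. The 4 promoters are shown because their upstream bases hold GGAATG or its reverse complement CATTCC and their listed start is the end of the gene span. Capitals mark those letters and, in ANKRD1, an AP-1 match (TGANTCA) as well.
CCN2 promoter, chr6:131951373-131951622, minus strand: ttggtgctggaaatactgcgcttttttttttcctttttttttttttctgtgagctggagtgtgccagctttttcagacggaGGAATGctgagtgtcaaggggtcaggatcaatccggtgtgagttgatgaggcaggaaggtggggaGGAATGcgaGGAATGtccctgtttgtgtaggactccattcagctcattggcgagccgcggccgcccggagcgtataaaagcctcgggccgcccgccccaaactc
ANKRD1 promoter, chr10:90921088-90921337, minus strand: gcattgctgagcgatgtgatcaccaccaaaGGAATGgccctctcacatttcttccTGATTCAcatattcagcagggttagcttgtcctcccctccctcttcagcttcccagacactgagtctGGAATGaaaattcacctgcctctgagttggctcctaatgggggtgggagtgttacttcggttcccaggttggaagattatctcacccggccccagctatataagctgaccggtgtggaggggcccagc
YAP1 promoter, chr11:102110197-102110446, plus strand: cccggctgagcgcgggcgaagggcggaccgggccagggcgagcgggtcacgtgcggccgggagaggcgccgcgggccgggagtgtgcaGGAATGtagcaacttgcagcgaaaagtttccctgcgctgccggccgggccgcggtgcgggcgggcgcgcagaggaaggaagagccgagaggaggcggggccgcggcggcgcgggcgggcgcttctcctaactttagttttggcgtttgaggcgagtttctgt
PTPN14 promoter, chr1:214551603-214551852, minus strand: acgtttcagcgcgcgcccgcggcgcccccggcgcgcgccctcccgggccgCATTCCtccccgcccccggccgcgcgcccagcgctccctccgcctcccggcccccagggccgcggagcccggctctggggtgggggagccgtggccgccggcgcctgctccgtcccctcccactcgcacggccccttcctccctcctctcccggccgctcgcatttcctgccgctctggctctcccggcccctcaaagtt
The CCN2 promoter held GGAATG 3 times, at -169, -104 and -95, where -1 is the base before the start. ANKRD1 held it at -220 and -128, with the AP-1 letters TGATTCA at -195. YAP1 held GGAATG at -162, PTPN14 held CATTCC at -200, and the second listed start of AMOTL2 held CATTCC at -69. No match lay in the promoters of MYOF, AMOTL1 or either listed start of WWTR1. Over 35116 promoters of 300 bases (250 before to 50 after the start), searched on both strands, 14.0% held GGAATG and 7.71% held TGANTCA. The antioxidant response element TGACNNNGC, the letters NRF2 is known to read, was in none of the members' promoters and in 13.3% of all. TATAAA was found in CCN2 at -32, inside the lower case letters above, and in 11.5% of all promoters. None of these motifs overlapped another in the members' promoters. A match describes letters and does not show that a factor was bound there.

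Only peaks and no reads were given, so depth is unknown, the absence of a peak may reflect a shallow library, and precision is limited by how many peaks each list holds. The 2 libraries of a target differed in length most for BRG1 (3213 and 6610 peaks) and NRF2 (1538 and 919), and SMARCC1 had 600 and 572. Peaks of the marks numbered from 17752 to 37283 a library. Of the BRG1 peaks in the 10 windows, 75.0% in replicate 1 and 33.3% in replicate 2 were met by the other replicate, against 64.2% and 31.1% over the whole lists. For H3K27ac these shares in the windows were 83.2% and 89.5%. The line's identity was looked up at the starts of marker genes, or at the ends of the span where no start was listed. Of these, 4 of 5 ductal and epithelial and 2 of 2 mesenchymal markers carried H3K4me3, as did 0 of 3 acinar, 0 of 2 islet, 0 of 3 blood and 0 of 2 endothelial markers. The 4 were scored by span ends, and KRT8, the only 1 of the 5 with a listed start, had no H3K4me3 there. H3K27ac was found at 4 of the 5 ductal and epithelial markers, 1 of the 2 mesenchymal ones and none of the others.

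BRG1 lay reproducibly in the windows of 5 of the 10 genes, MYOF, YAP1, WWTR1, AMOTL1 and PTPN14, at 9 sites in all. Among all coding genes 9.32% had such a site. The windows differ in length, and all 5 genes belong to the 6 members whose window is 200 kb or more. Of all coding genes with a window that long, 22.1% had a BRG1 site, against 6.74% of those with a shorter one. The split at 200 kb was chosen after the values were seen. CCN1, CCN2, ANKRD1 and AMOTL2, whose windows run from 103 to 120 kb, had none, and TEAD1, with the longest window at 370 kb, also had none. By role, 1 of 4 target genes and 4 of 6 regulators had a BRG1 site.

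The YAP1 site was the one nearest to a gene start. It lay at chr11:102111896-102112399, centred 1.66 kb inside the gene, within the H3K4me3 of the promoter and partly overlapping its H3K27ac. Its fold enrichment was 2.64 in replicate 1 and 3.84 in replicate 2. No other of the 9 sites met H3K4me3.

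MYOF, the only target gene with a BRG1 site, had 2 of them, both inside the gene and both in H3K27ac without H3K4me1. The site at chr10:93466052-93466272, 16.2 kb from the start, reached 4.42 and 4.02 in replicates 1 and 2. Among the 9 sites it had the highest replicate 1 value. An NRF2 peak of replicate 1 coincided with it at 4.99, and NRF2 replicate 2 had no peak there. The second MYOF site, chr10:93468411-93468918, 13.7 kb from the start, was weaker at 2.64 and 2.70.

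PTPN14, the phosphatase that retains YAP, had 3 BRG1 sites, more than any other of the 10 genes. One lay 15.2 kb upstream of the start at chr1:214566618-214566991, in H3K27ac and H3K4me1, with 3.88 and 4.11. Another, 47.9 kb inside the gene at chr1:214503522-214503831, had 3.94 and 4.18 and met no mark, although an H3K4me1 region began 100 bp away. The third, 75.4 kb inside at chr1:214475843-214476286, met H3K4me1 alone, with 3.24 and 3.33. At all 3 sites the replicates were close to each other.

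WWTR1, which encodes TAZ, had 2 BRG1 sites deep in the gene. The one at chr3:149579887-149580198, 78.0 kb from the start used here, had 3.01 and 3.21 and met no mark. The one at chr3:149572961-149573195, 85.0 kb from that start, had 2.79 and 3.13 and lay in H3K27ac. The single AMOTL1 site lay past the far end of that scaffold gene, at chr11:94885088-94885471 in H3K4me1, with an uneven 2.53 and 4.47.

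Of the 9 BRG1 sites, 5 met H3K27ac, 3 met H3K4me1, 1 met H3K4me3 and 2 met no mark. Over all 2039 BRG1 sites of the series the shares were 31.7%, 28.9% and 5.44%, and 52.3% met no mark. With 9 sites these are counts and not a comparison of rates. The median of the 9 sites' mean folds was 3.29, and over the whole series it was 3.74. Only the MYOF peak of replicate 1 among the peaks of these sites passed a -log10 q of 1.3, at 1.53, and its partner in replicate 2 had 1.11. With that threshold in both replicates no member kept a BRG1 site. Over the whole lists only 8.03% of BRG1 peaks in replicate 1 and 16.0% in replicate 2 passed it. The share of all coding genes that kept a site is not given here, so the count is not set against a background.

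**Figure D1:**
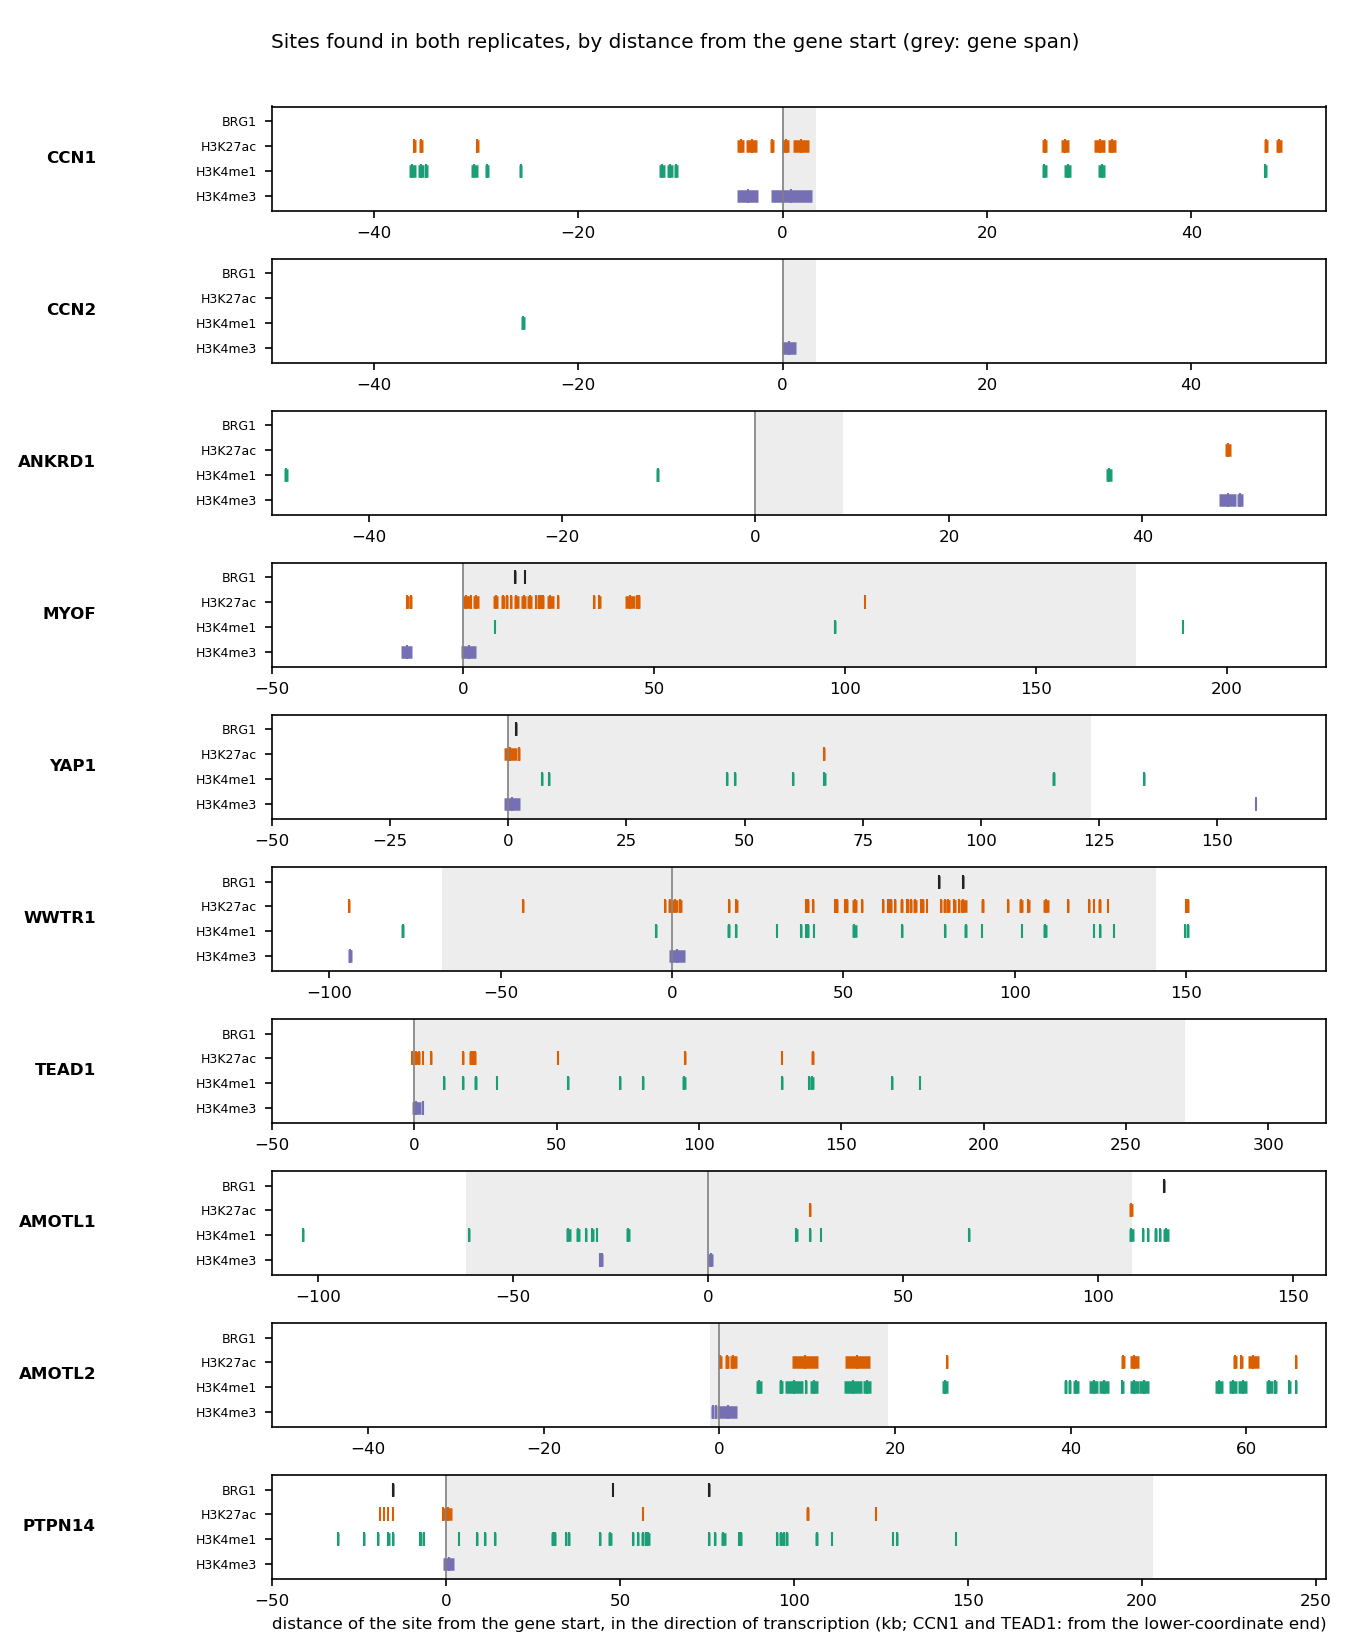
Position of every reproducible BRG1, H3K27ac, H3K4me1 and H3K4me3 site in the 10 windows. The horizontal axis is the distance from the gene start in kb, in the direction of transcription (for CCN1 and TEAD1 from the end of the span with the lower coordinate, for WWTR1 and AMOTL2 from the listed start that lies under H3K4me3), and grey is the gene span. A reader should see 9 BRG1 sites in 5 genes, 24 H3K27ac sites of MYOF mostly in the early part of the gene, and 23 H3K4me1 sites of AMOTL2 that all lie on the downstream side of its start.

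Beside these sites the windows held factor peaks of 1 library only. Of 39 BRG1 peaks, 21 had no partner in the other replicate, and the same was true of both SMARCC1 peaks and all 7 NRF2 peaks. So no member had a reproducible SMARCC1 site, which 1.6% of all coding genes had, or a reproducible NRF2 site, which 1.95% had. At such low shares a count of 0 in 10 genes is near the background. Over the whole lists no SMARCC1 peak of either library had a -log10 q above 0, so its peaks named below are weak calls.

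The strongest factor peak of all 10 windows was of this kind. It was a BRG1 peak of replicate 2, 67.9 kb inside YAP1 at chr11:102178248-102178480, with a fold of 5.99 and a -log10 q of 4.53. That is higher than 98.0% of the peaks of its library. BRG1 replicate 1 had no peak there, and the place met none of the 3 marks.

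In PTPN14 peaks of all 3 factors coincided, each in 1 library. There, with the BRG1 summit 56.5 kb inside the gene, BRG1 replicate 2 (3.43), SMARCC1 replicate 1 (3.29) and NRF2 replicate 2 (3.47) overlapped within a place that carried H3K27ac and H3K4me1. Further upstream, 23.5 kb before the start, BRG1 replicate 1 (3.28) and NRF2 replicate 1 (3.39) overlapped in H3K4me1. BRG1 replicate 2 also had a peak of 3.34 at the promoter, 473 bp upstream of the start. All these PTPN14 peaks of 1 library had a -log10 q of 0.

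BRG1 peaks of 1 library also lay in WWTR1 (4), MYOF (3) and AMOTL1 (3), at folds from 2.03 to 3.36, all at or below the median of their library. WWTR1 had a SMARCC1 peak in replicate 2 (2.99) and 2 NRF2 peaks in replicate 1 (3.68 and 2.66). TEAD1 had 3 BRG1 peaks, of 2.81, 3.02 and 3.22, and an NRF2 peak of 2.72, all in replicate 2, and CCN1 had 2 BRG1 peaks in replicate 2 (3.53 and 1.98). AMOTL1 had an NRF2 peak of 3.19 in replicate 2. CCN2, ANKRD1 and AMOTL2 held no peak of BRG1, SMARCC1 or NRF2 in any library.

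**Figure D2:**
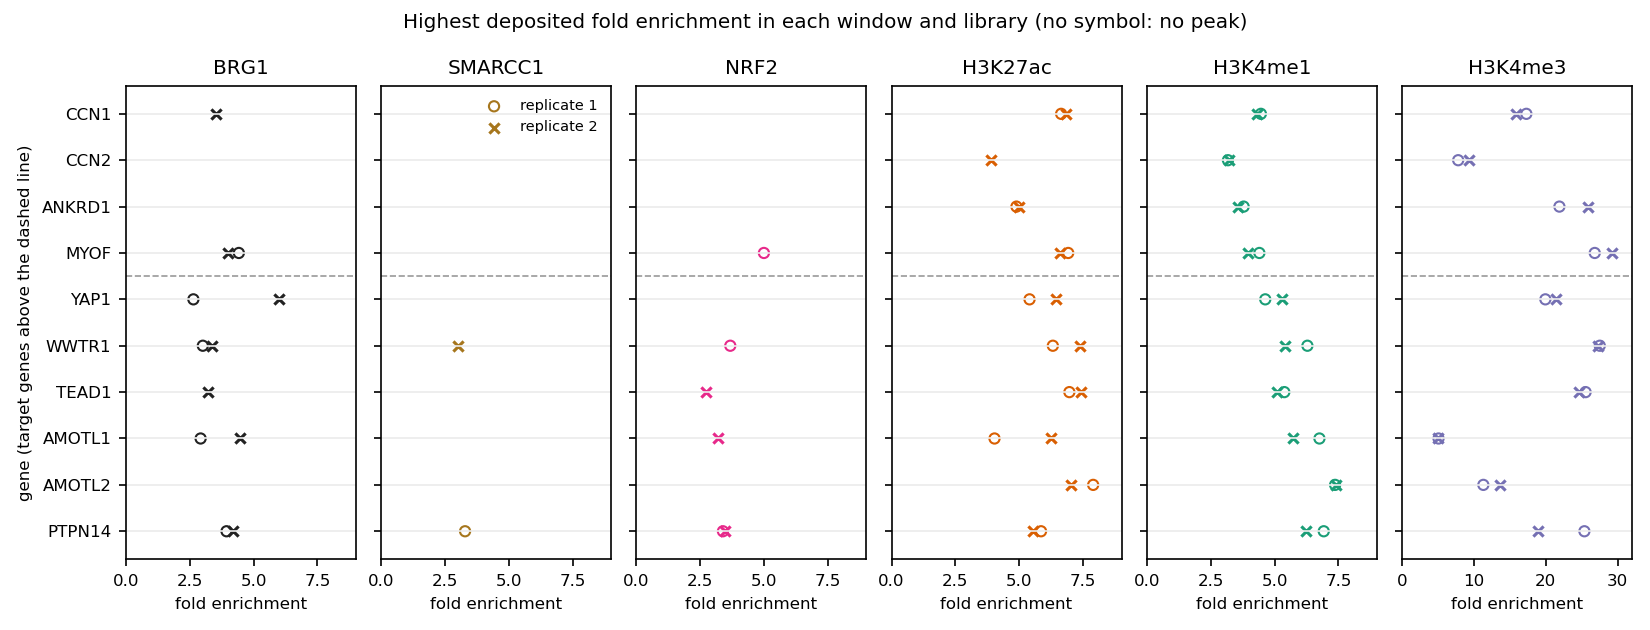
Highest deposited fold enrichment in each of the 10 windows, by gene (vertical axis) and target (panels), with circles for replicate 1 and crosses for replicate 2. The horizontal axis is the fold enrichment on a linear scale that starts at 0 and is wider for H3K4me3. No symbol means that the library had no peak in the window, as for BRG1, SMARCC1 and NRF2 at CCN2, ANKRD1 and AMOTL2. The 5.99 of BRG1 at YAP1 stands in replicate 2 alone.

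Over the whole windows, H3K27ac had a site in 9 of the 10 genes (all but CCN2), where 71.6% of coding genes have one, H3K4me1 in 10, against 52.6%, and H3K4me3 in 10, against 78.2%. At the gene starts the members differed more. The promoters of 9 of the 10 genes carried reproducible H3K4me3 within 1000 bp of the start. CCN1 and TEAD1 have no listed start, so both ends of the span were looked at and a mark at either end counted. In both genes the end with the lower coordinate lay under H3K4me3, and it was taken as the start for that reason. Among the 8 members with a listed start 7 carried H3K4me3, against 62.1% of 15811 coding genes in the same table. The exception was ANKRD1, whose start had no H3K4me3 and no H3K27ac peak in either replicate.

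The H3K4me3 fold differed among the starts. MYOF had 26.8 in replicate 1 and 22.7 in replicate 2, TEAD1 25.5 and 24.6, and PTPN14 25.4 and 19.0. WWTR1 had 27.5 and 16.2 at the listed start that lies under H3K4me3, YAP1 19.9 and 21.4, and CCN1 17.3 and 15.9. The other listed start of WWTR1 had no H3K4me3 peak in either replicate. MYOF, TEAD1 and PTPN14 overlapped, and WWTR1 varied most between replicates and overlapped all the others. YAP1 lay below MYOF and TEAD1 in both replicates, and CCN1 lay below all 5 others in both replicates, although its value in replicate 1 exceeded that of WWTR1 in replicate 2.

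The remaining starts were lower. AMOTL2 had 11.3 and 13.7, CCN2 7.81 and 9.38, and AMOTL1 5.08 and 4.95. The 3 genes do not overlap with each other or with the 6 above. The AMOTL1 value was higher than 30.5% of the H3K4me3 peaks of replicate 1 and 27.2% of those of replicate 2, and that of CCN2 higher than 46.4% and 49.0%.

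H3K27ac lay at the start of 7 of the 10 genes, CCN1, MYOF, YAP1, WWTR1, TEAD1, AMOTL2 and PTPN14. Of the 8 with a listed start 5 had it, against 47.5% of coding genes in the table, a difference that 8 genes cannot resolve. TEAD1 had the highest values at its start, 6.96 and 7.42, and MYOF had 6.11 and 5.5. CCN2 had an H3K27ac peak at its start in replicate 2 alone (3.90), and ANKRD1 and AMOTL1 had none. H3K4me1 covered no member's start in both replicates, and 5.33% of coding genes in the table had it.

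Among the target genes CCN1 was set in dense marks. Its window of 103 kb held 14 H3K27ac sites, or 13.6 per 100 kb, and 13 H3K4me1 sites, or 12.6 per 100 kb. These are the ranks 178 and 39 of 19970 coding genes. Part of this belongs to the neighbour DDAH1 (a dimethylarginine hydrolase), whose span holds 5 of the H3K27ac and 9 of the H3K4me1 sites. Past the far side of CCN1, between 25.7 and 48.5 kb from the lower end of its span, 6 H3K27ac sites lay in a stretch with no other coding gene in the window. Their replicate folds ran from 2.55 to 4.23, and 4 of them met H3K4me1.

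MYOF carried far more H3K27ac than H3K4me1 sites, though its H3K4me1 density of 1.09 per 100 kb was above 68.7% of coding genes. Its window held 24 H3K27ac sites (8.70 per 100 kb, rank 774) and 3 H3K4me1 sites, and 23 of the 24 lay within 50 kb of the start. Of the 24 sites 18 met neither H3K4me1 nor H3K4me3, which is 75.0%, against 25.5% of the H3K27ac sites of the series. The share was 45.2% over all 10 windows, 58.3% at WWTR1, and from 0 to 44.4% at the other members with H3K27ac sites. Peaks of H3K27ac covered 7.59% and 7.57% of the MYOF window in the 2 replicates, where the median of coding genes was 0.807% and 0.845%. The second H3K4me3 site of the window, with 26.1 and 29.2, lay at the start of the neighbour CEP55 and not of MYOF.

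CCN2 and ANKRD1 had little H3K27ac, while their H3K4me1 was not below that of most genes. Their H3K4me1 densities of 0.969 and 2.75 per 100 kb were above 66.4% and 85.3% of coding genes, whose median was 0.452. The window of CCN2 held no H3K27ac site, 1 H3K4me1 site 25.4 kb upstream with 3.18 and 3.23, and the H3K4me3 of its promoter. ANKRD1 had 3 H3K4me1 sites, none within 10 kb of its start, and the highest of them reached 3.69 and 3.13. H3K4me1 peaks of 1 library lay nearer to the ANKRD1 start. Replicate 1 had one of 3.79 with its summit 8479 bp upstream, and replicate 2 one of 3.58 with its summit 890 bp inside the gene. The single H3K27ac site (4.89 and 5.01) and both H3K4me3 sites of the ANKRD1 window lay at the far edge of the window, around the start of the neighbour RPP30, a subunit of RNase P. The promoters printed for CCN2 and ANKRD1, with 3 and 2 GGAATG matches, belonged to the 2 members without a reproducible H3K27ac site of their own. The letters did not separate the members by acetylation, since YAP1, PTPN14 and AMOTL2 also held a match and had reproducible H3K27ac at the start. AMOTL1 was the other member with no H3K27ac at its start, and its promoter held no match.

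Among the coactivators WWTR1 had the densest acetylation of all 10 genes. Its window held 48 H3K27ac sites (15.6 per 100 kb, rank 95) and 21 H3K4me1 sites (6.83 per 100 kb, rank 498). H3K27ac peaks covered 9.83% and 9.11% of the window. Most lay inside the gene, 43 of the 48 H3K27ac sites apart from 2 at the start. Of the 21 H3K4me1 sites 16, or 76.2%, met H3K27ac, against 21.7% in the series. Of the 48 H3K27ac sites 16, or 33.3%, met H3K4me1, against 20.8% in the series. Another 28 of the 48, or 58.3%, met neither H3K4me1 nor H3K4me3, against 25.5% in the series. The highest H3K27ac site of the window, with 6.31 and 7.38, lay at the start of the neighbour COMMD2.

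YAP1 and TEAD1 had fewer H3K27ac and H3K4me1 sites than WWTR1. YAP1 had 3 H3K27ac sites (1.35 per 100 kb, where the median over all coding genes was 1.28), of which 2 lay within 10 kb of the start. It had 8 H3K4me1 sites, of which 7 met no H3K27ac. Its place of joint H3K27ac and H3K4me1 lay 66.8 kb inside the gene, with H3K27ac folds of 3.36 and 3.15, beside the single-library BRG1 peak. TEAD1 had 13 sites of each mark, or 3.51 per 100 kb. Of its 13 H3K27ac sites 5 lay within 10 kb of the lower end of the span, and 5 met H3K4me1. Both genes have long windows, and among coding genes with a window of 200 kb or more the median H3K27ac density was 0.494. Within that class YAP1 was above 72.8% of genes and TEAD1 above 93.6%.

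**Figure D3:**
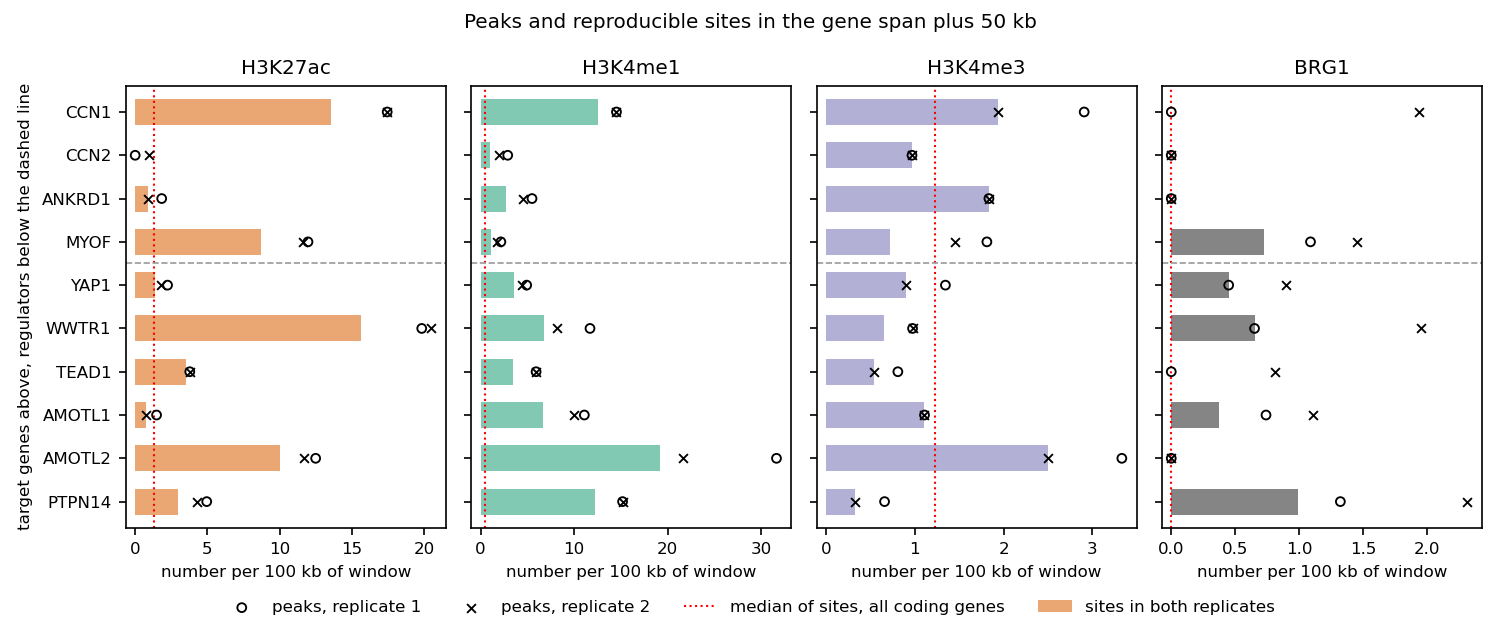
Sites in both replicates (bars) and peaks of replicate 1 (circles) and replicate 2 (crosses), as a number per 100 kb of window, by gene and for H3K27ac, H3K4me1, H3K4me3 and BRG1. The red dotted line is the median of sites over all coding genes, at 1.28, 0.452, 1.23 and 0. A reader should see the H3K27ac bars of WWTR1 (15.6) and CCN1 (13.6) and the H3K4me1 bar of AMOTL2 (19.2).

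Each of the 3 inhibitors had more H3K4me1 than H3K27ac sites. This was not particular to them: YAP1 (8 and 3), ANKRD1 (3 and 1) and CCN2 (1 and 0) did too, and TEAD1 had 13 of each. AMOTL2 had 23 H3K4me1 sites in a window of 120 kb, or 19.2 per 100 kb, the highest density of all 19970 coding genes. Its peaks covered 16.2% and 12.9% of the window in replicates 1 and 2, the highest share in either library, where the median of coding genes was 0.277% and 0.228%. All 23 lay on the downstream side of the start, 7 inside the gene and 16 in the flank, and that flank holds no other coding gene. The widest, 15.9 kb into the gene at chr3:134358212-134360296, had 6.45 and 7.41, and a second inside the gene, chr3:134364877-134366957, had 7.22 and 6.35. Of the 23 sites 11 met H3K27ac, and the window held 12 H3K27ac sites (rank 528). The rank depends on the window: it was 48 with a flank of 10 kb and 11 with 100 kb, and 3 without replicate 1.

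PTPN14 had 37 H3K4me1 sites, the most of the 10 genes and 12.2 per 100 kb (rank 47). Only 3 of them met H3K27ac, or 8.11%, against 21.7% in the series. They ran through the upstream flank (8 sites) and the gene (29 sites), and the highest, 34.6 kb inside the gene, reached 6.93 and 6.24. Of its 9 H3K27ac sites 2 lay at the start and 4 upstream.

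AMOTL1 had the same leaning. It held 18 H3K4me1 sites (6.66 per 100 kb, rank 533) and 2 H3K27ac sites, and 16 of the 18 met no H3K27ac. They lay before the listed start, where the RefSeq span already runs, between that start and the far end of the gene, and past the far end, around the BRG1 site. At the far end, chr11:94876258-94877160, H3K27ac had 4.03 and 6.24. Among the 3 inhibitors AMOTL2 had the most acetylation for its length, 12 H3K27ac sites in 120 kb against 9 in 303 kb for PTPN14 and 2 in 270 kb for AMOTL1.

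**Figure D4:**
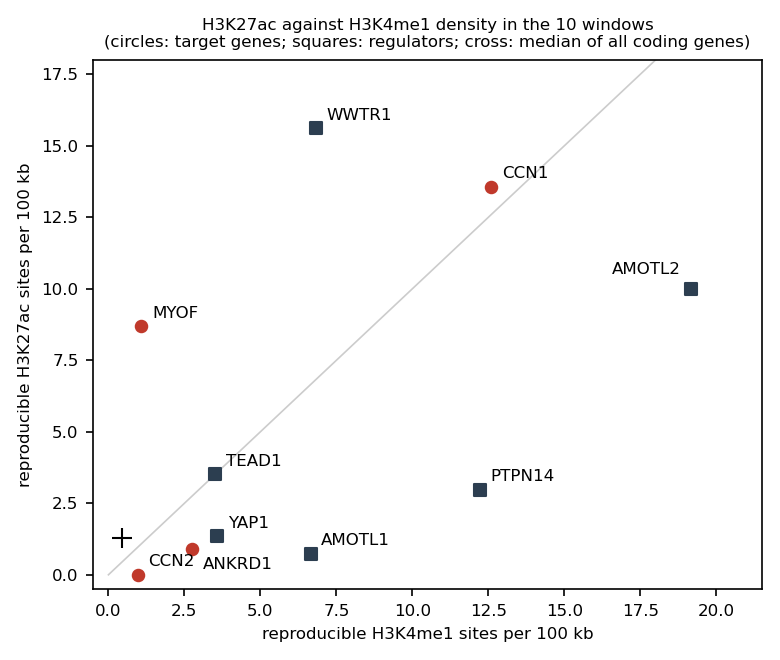
Reproducible H3K27ac sites per 100 kb (vertical axis) against H3K4me1 sites per 100 kb (horizontal axis) for the 10 windows, with circles for target genes, squares for regulators, a cross for the median of all coding genes, and a grey line where both are equal. WWTR1 (15.6 and 6.83) and MYOF (8.70 and 1.09) lie above the line, and PTPN14 (2.97 and 12.2), AMOTL1 (0.740 and 6.66) and AMOTL2, farthest to the right at 19.2 on the horizontal axis, below it. YAP1, ANKRD1 and CCN2 also lie below the line, TEAD1 lies on it and CCN1 slightly above it.

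Target genes were then set against the pathway's own regulators. The median density of H3K4me1 sites was 1.92 per 100 kb over the 4 target genes and 6.74 over the 6 regulators, with 0.452 over all coding genes. Each replicate's own peaks gave the same order, 4.21 against 11.4 in replicate 1 and 3.26 against 9.06 in replicate 2. CCN1 with 12.6 went the other way, and was above 5 of the 6 regulators. Genes are not replicates, so the difference carries no test. It rests on where the inhibitors are put: with AMOTL2 and PTPN14, which are also known targets, counted as target genes, the difference in medians turned from -4.82 to 2.36.

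For the other targets the roles differed less. The median density of H3K27ac sites was 4.81 for target genes and 3.24 for regulators, with both groups spread from under 1 to over 13 and overlapping throughout. By the highest H3K27ac fold of a gene, as a percentile of its library, the direction was not the same in both replicates: over genes with a peak, the median was 96.7 for target genes and 94.4 for regulators in replicate 1, and 90.8 and 96.9 in replicate 2. H3K4me3 sites had medians of 1.40 and 0.774 per 100 kb for target genes and regulators, and 1.23 over all coding genes. This density depends on window length: the coding median was 1.59 for windows under 200 kb and 0.462 for those of 200 kb or more. CCN1, CCN2, ANKRD1 and AMOTL2 have the shorter windows, and MYOF and all other regulators the longer ones. With a flank of 100 kb the H3K4me3 difference between the roles turned from 0.63 to -0.15. BRG1 sites had medians of 0 and 0.409. In windows of 50 kb to both sides of the start, which are of equal length, the median number of sites was 2 and 8.5 for H3K4me1, 7.5 and 7 for H3K27ac, 2 and 1.5 for H3K4me3, and 0 and 0 for BRG1.

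A wider set of pathway genes was read the same way, 20 further regulators and 18 further target genes, all of them found in RefSeq. A BRG1 site lay in 2 of the 20 regulators and 5 of the 18 target genes, where 9.32% of all coding genes have one, and SMARCC1 and NRF2 had a site in none. The highest BRG1 site was at TGFB2, which encodes a transforming growth factor, with 7.08 and 7.70 in H3K27ac. It exceeds every BRG1 site of the 10 genes in both replicates. TGFBI, an adhesion protein of the matrix, followed with 4.12 and 4.69, outside all 3 marks. FAT1, the giant cadherin upstream of Hippo signalling, had 3.09 and 4.89 in H3K27ac, FJX1 had 4.18 and 3.03 with no mark, and the receptor tyrosine kinase gene AXL had 3.72 and 3.22 in H3K27ac. H3K27ac was in the windows of 17 of the 20 regulators and 16 of the 18 target genes, H3K4me1 in those of 13 and 13, and H3K4me3 in those of 20 and 17, beside the shares of all coding genes given above. In the wider set the median H3K4me1 density was higher in target genes (4.28 per 100 kb) than in regulators (0.602), the opposite order to that of the 10 genes.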

How the data were processed

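CUT&RUN peak lists of 12 libraries were used, 2 replicates each of BRG1, SMARCC1, NRF2, H3K27ac, H3K4me1 and H3K4me3, grouped by the target and replicate number in the labels. Per the submitters' processing notes, the build was GRCh38 and the tools were MACS2 2.2.7.1, Bowtie2 2.4.1, Picard 2.23.9 and SAMtools 1.9, with no role or setting given. Each library was called on its own. The fold enrichment of a peak, a ratio, was deposited by the authors and used without rescaling. The −log10 p and −log10 q, also deposited by the authors, served as descriptions and as thresholds in alternatives, and the deposited peak score was not used. Whether peaks were called against IgG is not given in the sources used here.

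From these, peaks of both replicates of a target were merged where they overlapped or touched, on chromosomes 1 to 22 and X, and a site needed at least 1 peak of each. A site was counted for a gene when it met the RefSeq GRCh38.p14 span plus 50 kb, and for a start within 1000 bp. Overlap of marks meant at least 1 bp. Distances run to the mean of the replicates' summits. Windows of all coding genes gave the background shares. No test was made, since genes are not replicates and there is 1 condition. The members and gene lists were chosen with earlier results of these data known. Named outside the 10 genes were further pathway and target genes with sites of at least 2 factors (none) and the 5 with the highest BRG1 site. Alternatives were −log10 q thresholds, flanks of 10 and 100 kb, a larger overlap between replicates, peaks of either replicate, 1 library alone, AMOTL2 and PTPN14 as target genes, fold as a percentile and, added after seeing the data, windows around the start and all alternatives for the H3K4me1 and H3K4me3 medians and the AMOTL2 rank. Site merging was tested on simulated data. Analyses used Python 3.11.15, NumPy 2.4.6, pandas 2.3.3 and matplotlib 3.10.9.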

Additional observations from a re-analysis of the deposited data

How the results depend on the processing

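The number of the 10 genes with a site kept within 1.5 times for H3K27ac and H3K4me3 under every alternative run, and for H3K4me1 except at a −log10 q of 5, which left 1 of 10. For BRG1 it fell from 5 to 0 at a −log10 q of 1.3 and to 0 at 5, and to 3 within 50 kb of the start. The shares of all coding genes under these alternatives are not given here. Counts without 1 replicate ran from 5 to 7. SMARCC1 went from 0 to 2 and NRF2 from 0 to 5 with peaks of either replicate, to 1 and to 3 with either replicate left out, and NRF2 to 1 with a flank of 100 kb.

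The difference in median density, target genes minus regulators, moved more. In the order −log10 q of 1.3, −log10 q of 5, flank of 10 kb and 50 kb around the start, BRG1 went from -0.41 to 0, 0, -0.61 and 0, H3K27ac from 1.57 to 2.19, 0.18, 2.25 and 0.50, H3K4me1 from -4.82 to -1.64, 0, -8.35 and -6.50, and H3K4me3 from 0.63 to 0.35, 0.53, 1.72 and 0.50. A flank of 100 kb gave -0.0438 for BRG1, 0.90 for H3K27ac and -0.15, a reversal, for H3K4me3. Peaks of either replicate gave 2.93 for H3K27ac, -7.41 for H3K4me1 and 0.20 for H3K4me3, and a larger overlap gave 0.17 for H3K4me3. Without 1 replicate the values ran from 2.25 to 2.53 for H3K27ac, from -7.20 to -5.80 for H3K4me1 and from 0.71 to 0.78 for H3K4me3. With AMOTL2 and PTPN14 as target genes H3K27ac gave 3.41 and H3K4me1 2.36, a reversal. As a percentile of the highest fold, averaged over replicates with a missing peak counted as 0, BRG1 gave -30.5 and H3K27ac -4.27, a reversal in a different quantity. Over genes with a peak, replicate 1 went the other way for both, with medians of 88.2 (1 gene) for target genes and 23.6 for regulators in BRG1 and of 96.7 and 94.4 in H3K27ac. These causes were not tested. Of all alternative values 57 stayed close to the main value, 43 moved and 3 reversed.

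With 2 libraries a target and no depth given, a fold carries no error beyond its 2 values. No paired analysis was possible because the results come from no test and each target is a group of its own.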

Other observations

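Some further genes of the wider pathway set stood out by H3K4me1 density, named here after their values were seen. NUAK2, a kinase gene known as a YAP target, had 16 H3K4me1 sites (13.4 per 100 kb) and 12 H3K27ac sites, and CRIM1, a transmembrane protein gene, had 36 and 28. WWC1, which encodes the Hippo regulator KIBRA, had 26 H3K4me1 sites (9.26 per 100 kb) and 6 H3K27ac sites. In the 10 genes AMOTL2 was higher at 19.2 per 100 kb, and CCN1 and PTPN14 were alike to these at 12.6 and 12.2. None of NUAK2, CRIM1 and WWC1 had a BRG1 site.

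Within the 18 further target genes, DLC1 and IGFBP3 had no H3K27ac site, as CCN2 had none, and IGFBP3 was also the only one of the 18 without H3K4me3. These genes too were named after their values were seen.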
